A study of Mus musculus with 23 samples.

Results

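Mast cells and basophils are the blood-derived cells that carry IgE on their surface and release histamine, proteases and lipid mediators from granules. Mast cells mature within tissues under Kit ligand, whereas basophils leave the bone marrow fully formed and pass through the blood and the spleen. A list of 10 genes of these cells was followed on the arrays of the liver, spleen and heart. All probes of the 10 genes were taken by gene symbol from the annotation of the array, which gave 11 of the 24048 probes of the array, because Cpa3 had 2 probes and each of the other genes had 1. The array names 14776 genes by symbol.

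The arrays came from male BALB/c mice aged 12 weeks that received a normal diet for 6 weeks with either oil palm phenolics (OPP) in the drinking water, dosed at 1500 ppm as gallic acid equivalents, or plain distilled water (the control group). There were 4 OPP and 4 control spleens, 4 OPP and 4 control hearts, and 3 OPP and 4 control livers, each as 1 RNA sample on 1 array. The cages held a single drink each, so that cage and drink cannot be told apart, and the RNA samples with the best integrity were chosen for hybridisation. The labels do not name the mouse behind each sample, and p-values measure the spread between these samples only.

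The list covers the granule proteases, the histamine enzyme, the receptors and a transcription factor. Cpa3 (chromosome 3, 20215616 to 20242209 on GRCm38.p6) encodes the mast cell carboxypeptidase, which is also made by basophils and their precursors. Cma1 (chromosome 14, 55941451 to 55944675), Mcpt4 (chromosome 14, 56059744 to 56062310) and Mcpt8 (chromosome 14, 56082163 to 56085499) encode related serine proteases. Cma1 and Mcpt4 are chymases of connective tissue mast cells, and Mcpt8 is a basophil protease in the mouse. Tpsb2 (chromosome 17, 25366308 to 25368096) encodes a tryptase. Hdc (chromosome 2, 126593659 to 126624025) encodes histidine decarboxylase, the enzyme that makes histamine. Fcer1a (chromosome 1, 173221269 to 173227232) and Ms4a2 (chromosome 19, 11615517 to 11623790) encode the alpha and beta chains of the high-affinity IgE receptor. Kit (chromosome 5, 75574987 to 75656722) encodes the receptor of Kit ligand and is also carried by haematopoietic progenitors, melanocytes and interstitial cells of the gut. Gata2 (chromosome 6, 88193891 to 88207032) encodes a zinc finger factor needed by mast cells and basophils, and it is also made by progenitors, megakaryocytes and endothelium. How far the probes of the related proteases on chromosome 14 share signal was not tested.

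GATA2 binds a 6-letter motif, searched here as the letters GATA with an A or a T before them and an A or a G after them, which makes 4 forms. These were searched on both strands in the 250 bases before each start site, from RefSeq promoters of GRCm38.p6. Of the 10 genes, 9 had at least 1 promoter in the table (11 promoters in all), and Tpsb2 was not matched. The motif was found for 6 of the 9 genes, namely Cma1, Cpa3, Fcer1a, Hdc, Mcpt4 and Ms4a2, and in 26.5% of all 32851 promoters. The promoters of Cpa3, Hdc, Mcpt4 and Mcpt8 are given because these 4 genes had the largest log2 differences of the list between OPP and control spleens. The capitals mark the motif, and Mcpt8 had none in this window.
Cpa3, chr3:20242182-20242431, minus strand: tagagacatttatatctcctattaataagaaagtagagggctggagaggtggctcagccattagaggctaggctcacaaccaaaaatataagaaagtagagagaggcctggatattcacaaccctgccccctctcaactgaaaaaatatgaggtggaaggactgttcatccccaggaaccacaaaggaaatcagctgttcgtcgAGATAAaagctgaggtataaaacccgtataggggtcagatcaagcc
Hdc, chr2:126618679-126618928, minus strand: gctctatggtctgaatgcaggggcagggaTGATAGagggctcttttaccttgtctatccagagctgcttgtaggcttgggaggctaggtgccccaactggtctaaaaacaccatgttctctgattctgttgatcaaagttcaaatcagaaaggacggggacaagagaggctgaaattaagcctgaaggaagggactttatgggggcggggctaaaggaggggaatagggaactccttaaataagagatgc
Mcpt4, chr14:56062311-56062560, minus strand: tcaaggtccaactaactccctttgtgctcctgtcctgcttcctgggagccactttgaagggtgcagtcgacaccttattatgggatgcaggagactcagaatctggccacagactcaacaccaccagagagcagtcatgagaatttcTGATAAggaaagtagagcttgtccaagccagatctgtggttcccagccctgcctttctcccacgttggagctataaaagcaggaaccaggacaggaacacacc
Mcpt8, chr14:56085198-56085447, minus strand: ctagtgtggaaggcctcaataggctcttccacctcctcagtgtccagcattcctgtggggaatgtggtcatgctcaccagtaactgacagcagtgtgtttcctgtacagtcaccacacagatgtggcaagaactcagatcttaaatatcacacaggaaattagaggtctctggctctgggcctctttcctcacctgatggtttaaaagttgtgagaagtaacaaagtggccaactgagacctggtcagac

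In Cpa3 the motif began at position -46 relative to the start site, in Mcpt4 at position -103 and in Hdc at position -221. Ms4a2 held 3 matches, and 6.4% of all promoters held 2 or more. The promoters of Gata2 and Kit, of which there were 2 each, held none. A match is a description of letters and not of binding, which was not measured here.

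A probe was taken as detected on an array at a detection p under 0.01, which comes from the rank of its intensity among the negative controls of that array. The detection limit differed between the organs. The dimmest detected probe had an intensity of 113 to 128 on the OPP spleens and 125 to 133 on the control spleens. It had 75.2 to 82.6 on the OPP hearts and 85.8 to 94.1 on the control hearts, against 256 to 560 on the OPP livers and 235 to 256 on the control livers. OPP liver 3 was the array with the limit of 560 and the fewest detected probes (5349), and the other arrays had between 6388 and 9785. The organs matched their labels, since all 6 lymphoid markers were detected on every spleen, all 6 cardiomyocyte markers on every heart and 5 of 6 hepatocyte markers on every liver. Of the 6 hepatocyte markers, 2 (Alb and Fgb) were detected on no spleen and no heart. In each of these 2 organs 1 of the 6 was detected on every array.

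The spleen showed most of the list. At least 1 array detected 7 of the 10 genes in the spleen, 5 in the heart and 0 in the liver. Cpa3, Kit, Gata2 and Mcpt8 were detected on all 8 spleens, whereas all 8 hearts detected Cpa3 and Gata2 only, with Kit on 7 hearts. Fcer1a, Ms4a2 and Tpsb2 were detected on no array of any organ. The second Cpa3 probe was likewise detected nowhere, and its lowest detection p was 0.0169, so the gene is described by its bright probe.

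**Figure D1:**
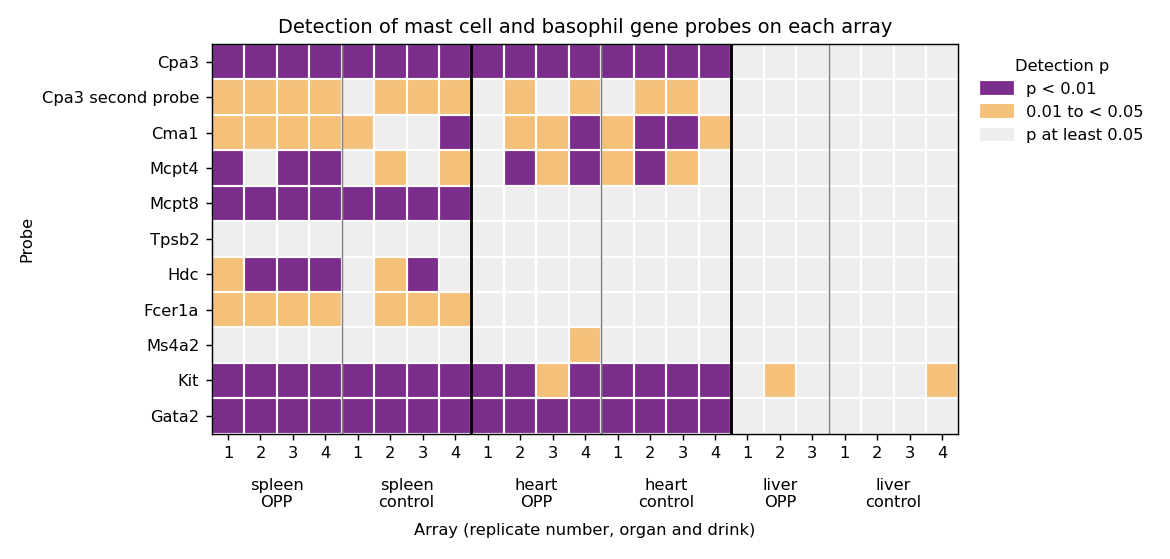
Detection of the 11 probes (rows) on the 23 arrays (columns, by organ and drink, OPP left of control), with purple for a detection p under 0.01, orange for 0.01 to under 0.05 and grey for the rest. Cpa3, Mcpt8, Kit and Gata2 were detected on all 8 spleens, and no probe was detected on any liver at 0.01.

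The liver gave the least information. Mcpt8 had intensities of 119 to 321 over the 7 livers and detection p-values of 0.457 to 0.973, within the negative controls. Cpa3 had 133 to 275 there, with detection p-values of 0.643 to 0.971. Kit came nearest, with a detection p of 0.0133 on OPP liver 2 and 0.0483 on control liver 4, and it was the 1 gene of the list under 0.05 in the liver. On a log2 scale normalised over all arrays, the dimmest detected probe lay between 6.34 and 7.40 on the livers, so that a level like the median of Cpa3 in the heart, 6.24, was not detectable there. No gene of the list entered the comparison of OPP livers with control livers, which tested 6434 probes.

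In the spleen, OPP was set against control among the 8582 probes detected on at least 3 arrays of either group. The 6 genes tested were Cpa3, Mcpt4, Mcpt8, Hdc, Kit and Gata2, and the other 4 (Cma1, Tpsb2, Fcer1a and Ms4a2) were too dim to enter. Levels below are log2 intensities after background removal, normalised among the spleens. All 6 were higher in OPP spleens, and none passed the Benjamini-Hochberg adjustment at 0.05 in limma, as was the case for 0% of all probes tested. Below 0.05 without adjustment were 5 genes, against 6.91% of all probes, and below 0.01, the cut-off used by the study, was 1, Gata2, against 1.69% of all probes. With the methods' t-test 2 genes, Gata2 and Cpa3, were below 0.05, and with the authors' normalised values 4 were, without Mcpt4. The median log2 difference of the 6 genes was 0.66, and that of all probes tested was 0.00.

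Mcpt4 and Hdc entered the test through 3 OPP spleens each, so their place among the tested genes already leans towards higher values with OPP. Of the 4 genes detected on all 8 spleens, for which this does not hold, Cpa3, Mcpt8 and Gata2 had an unadjusted p under 0.05 and Kit did not, and the median log2 difference of these 4 was 0.44. Gata2 and Cpa3 are also among the genes that the study picked on these same samples, and their direction is not independent evidence. In whole organs, more cells of a type and more RNA per cell cannot be told apart.

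**Figure D2:**
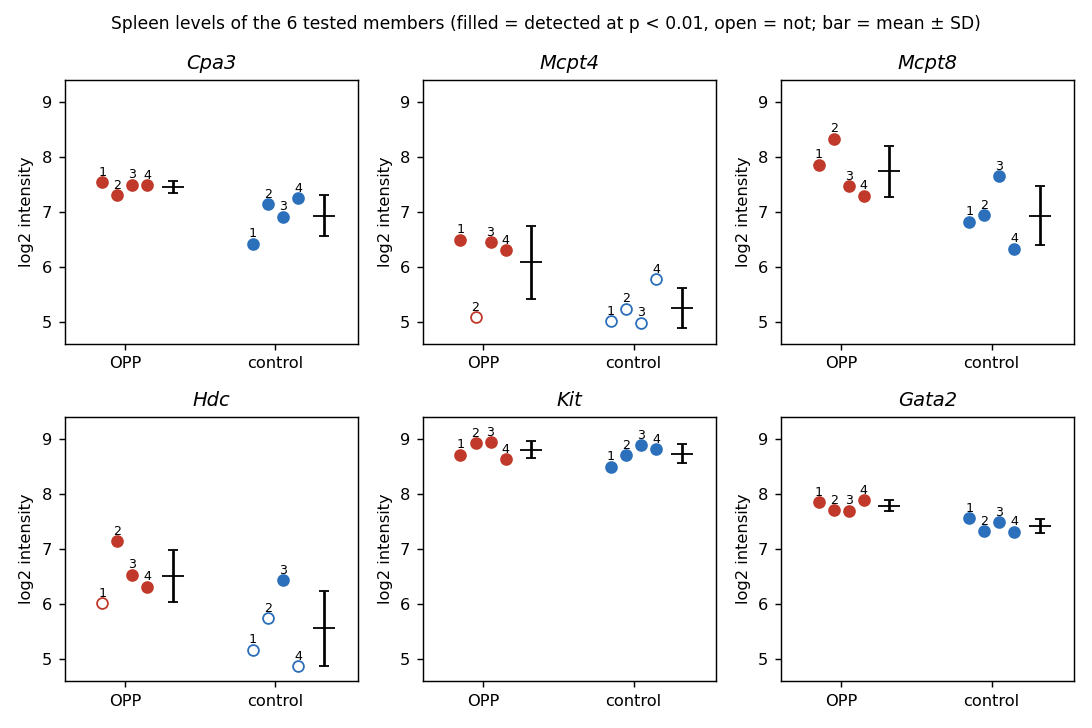
Log2 intensity of the 6 tested genes on each spleen, OPP in red left of control in blue, with the replicate number above each point, filled points for detected arrays and bars for the mean ± SD (n = 4 each). For Cpa3 and Gata2 the lowest OPP spleen (7.30 and 7.70) lies above the highest control spleen (7.24 and 7.56), and for the other 4 genes the groups overlap.

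Cpa3 was at 7.53, 7.30, 7.49 and 7.48 in OPP spleens, against 6.42, 7.14, 6.91 and 7.24 in control spleens. The OPP spleens lay close together and above every control spleen, and control spleen 1 was the lowest of all. The difference was 0.52 ± 0.17 (log2, SE), or 1.44-fold, with p = 0.0119 and an adjusted p of 0.597 in limma, and the exact permutation test over the 8 spleens gave p = 0.0286, the smallest it can give. Without control spleen 1 the difference was 0.35, with an unadjusted limma p that stayed under 0.05.

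Gata2 was at 7.85, 7.71, 7.70 and 7.89 in OPP spleens, against 7.56, 7.32, 7.49 and 7.32 in control spleens. No control spleen reached the lowest OPP spleen. The groups differed by 0.36 ± 0.10 (log2, SE), or 1.29-fold, with limma p = 0.00513 and an adjusted p of 0.523, and the exact permutation p was again 0.0286. The unadjusted call at 0.01 in limma was lost when OPP spleen 1, OPP spleen 4, control spleen 2 or control spleen 4 was left out, with differences of 0.34, 0.33, 0.33 and 0.33. Of the 6 genes, the 2 named so far had groups that did not overlap, against 3.6% of all probes in the spleen.

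Mcpt8, the basophil protease, was at 7.85, 8.33, 7.46 and 7.29 in OPP spleens, against 6.82, 6.93, 7.64 and 6.33 in control spleens. OPP spleen 2 was the highest, control spleen 4 the lowest, and control spleen 3 lay among the OPP spleens. The difference was 0.80 ± 0.29 (log2, SE), or 1.75-fold, with limma p = 0.0185 and an adjusted p of 0.635 (exact permutation p = 0.0857). It was 0.60 without OPP spleen 2 and 0.61 without control spleen 4, both no longer under an unadjusted 0.05 in limma, and 1.03 without control spleen 3, where it passed the unadjusted 0.01.

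Hdc, the histamine enzyme, was at 6.02, 7.14, 6.53 and 6.32 in OPP spleens, against 5.17, 5.74, 6.43 and 4.87 in control spleens. The spleens at the top and bottom were those of Mcpt8, with OPP spleen 2 highest, control spleen 4 lowest and control spleen 3 the highest of its group. Detection was reached on OPP spleens 2, 3 and 4 and on control spleen 3. The difference was 0.95 ± 0.34 (log2, SE), with 3 of the 4 control values below detection, and limma p = 0.0186 and an adjusted p of 0.635 (exact permutation p = 0.0857). It was 0.73 without control spleen 4, no longer under an unadjusted 0.05, and 1.23 without control spleen 3, where it passed the unadjusted 0.01 in limma.

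Mcpt4, a chymase of connective tissue mast cells, followed other spleens. It was at 6.49, 5.09, 6.44 and 6.29 in OPP spleens, against 5.01, 5.24, 4.98 and 5.78 in control spleens. OPP spleens 1, 3 and 4 detected it and no control spleen did, while OPP spleen 2, where Mcpt8 and Hdc were highest, lay within the control spleens. The difference was 0.83 ± 0.31 (log2, SE) with limma p = 0.0244 and an adjusted p of 0.635 (exact permutation p = 0.0857). As the control spleens were below detection, a bound was formed from the higher of each control array's own value and its dimmest detected probe. The mean of the OPP spleens was 1.07-fold above this bound. That mean includes undetected OPP spleen 2 at its measured value, so 1.07 is not a lower bound. Without OPP spleen 2 the difference was 1.16, which passed the unadjusted 0.01 in limma but not the adjustment (adjusted p = 1), and it was 0.77 without control spleen 1 and 0.73 without control spleen 3, both no longer under an unadjusted 0.05.

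Kit was at 8.72, 8.93, 8.94 and 8.64 in OPP spleens, against 8.50, 8.71, 8.89 and 8.82 in control spleens. The groups overlapped throughout, and the difference was 0.08 ± 0.11 (log2, SE) with an adjusted p of 0.975 in limma (exact permutation p = 0.514). It was the smallest difference of the 6 genes. Cma1 was detected on control spleen 4 only and was not tested.

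**Figure D3:**
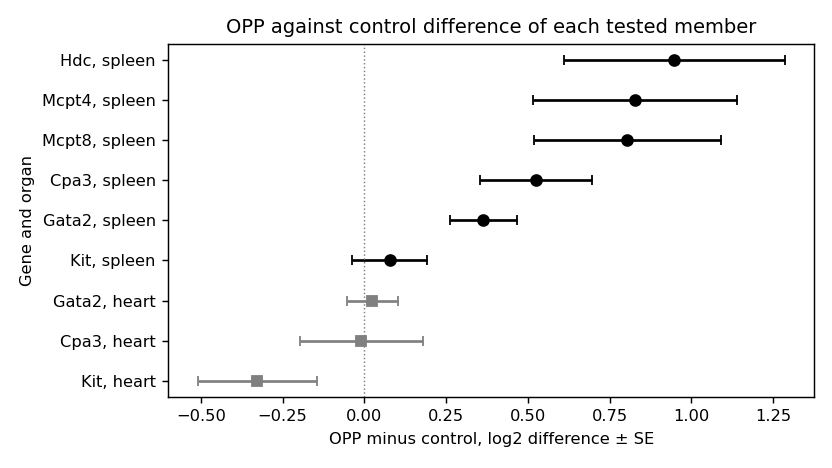
Difference between OPP and control arrays for each tested gene (x axis, log2, with SE bars; spleen as black circles, heart as grey squares). The spleen differences run between 0.08 for Kit and 0.95 for Hdc, and the heart differences between -0.33 for Kit and 0.02 for Gata2.

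In the heart, Cpa3, Kit and Gata2 entered the comparison among 9172 probes. None of the 3 had an unadjusted limma p under 0.05, against 14.1% of all probes, and so none was under 0.01 (4.61% of all probes) or passed the adjustment (0%). Kit was under 0.05 with arrays scaled to their median (-0.42) and with the replicate number as a block (-0.33). None had groups that did not overlap, against 7.97% of all probes. Their median log2 difference was -0.01, beside 0.00 over all probes.

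Gata2 was at 8.04, 8.22, 8.24 and 8.23 in OPP hearts, against 8.24, 8.21, 8.11 and 8.07 in control hearts. The values lay within about the same span in both groups, apart from OPP heart 1, the lowest. The difference was 0.02 ± 0.08 (log2, SE; limma adjusted p = 0.919), and -0.10 when arrays were scaled to their median.

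Cpa3 was at 5.81, 6.50, 5.67 and 6.06 in OPP hearts, against 5.74, 5.97, 6.31 and 6.07 in control hearts, with a difference of -0.01 ± 0.19 (log2, SE; limma adjusted p = 0.991, exact permutation p = 0.971). The highest and the lowest heart were both from OPP mice. Kit was at 5.55, 5.80, 5.30 and 6.21 in OPP hearts, against 5.94, 5.96, 6.01 and 6.26 in control hearts. OPP hearts 1, 2 and 3 were below all control hearts, OPP heart 4 was above 3 of them, and OPP heart 3 did not detect the gene. The difference was -0.33 ± 0.18 (log2, SE; limma adjusted p = 0.452, exact permutation p = 0.20). It was -0.49 without OPP heart 4, where it passed the unadjusted 0.01 but not the adjustment in limma (adjusted p = 0.264), and -0.19 without OPP heart 3.

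The chymases were at the edge of detection in the heart. Mcpt4 was detected on OPP hearts 2 and 4 and control heart 2. Cma1 was detected on OPP heart 4 and control hearts 2 and 3. Neither had 3 detected arrays in a group, and neither was tested. Mcpt8, Hdc and the IgE receptor chains were detected on no heart.

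Whether the response to OPP differed between organs was tested as an interaction in 1 limma fit of all 23 arrays. None of the 6 genes passed the adjustment in any of the 3 pairs of organs. The response of Gata2 in spleen minus that in liver was 0.73 ± 0.21 (log2, SE; adjusted p = 0.143), where the liver values were below detection. The response of Mcpt8 in spleen minus that in heart was 0.77 ± 0.28 (adjusted p = 0.984), with all hearts below detection. For Cpa3, detected in both organs, the response in spleen minus that in heart was 0.49 ± 0.22 (adjusted p = 1). In the same pair 4 of the 6 genes (Mcpt8, Hdc, Mcpt4 and Cpa3) were under an unadjusted 0.05 and none under 0.01, beside 414 and 117 of the 11212 probes. Hdc and Mcpt4 entered the fit through OPP spleens only, so their response in spleen already leans upwards. Hdc, like Mcpt8, was detected on no heart.

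Levels across organs were compared in the same fit, on log2 intensities normalised over all 23 arrays. Most probes differed between organs, so that the calls of the list are read against a high background. Between spleen and liver, 6 of the 6 tested genes were higher in spleen at an adjusted p under 0.05. Of all probes, 86.1% were called there in either direction. No liver detected any of these genes, so each entered the fit through spleens or hearts, and Mcpt8, Hdc and Mcpt4 through spleens only. Their place among the tested genes thus already leans towards values above the liver. For Hdc and Mcpt4 the spleen means, 5.97 and 5.66, were below the mean detection limit of the livers, 6.78, so that no bound above the liver could be given for them. Between spleen and heart 4 were higher and 1 was lower in spleen, where 83.3% of all probes were called in either direction. Of the genes called higher here, Mcpt8 and Hdc were detected on no heart and entered through spleens only. Their direction against the heart thus already leaned upwards. Between heart and liver 4 were higher in heart, where 82.3% of all probes were called in either direction. These shares are close to those of all probes, and the order of the organs for each gene carries the description.

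**Figure D4:**
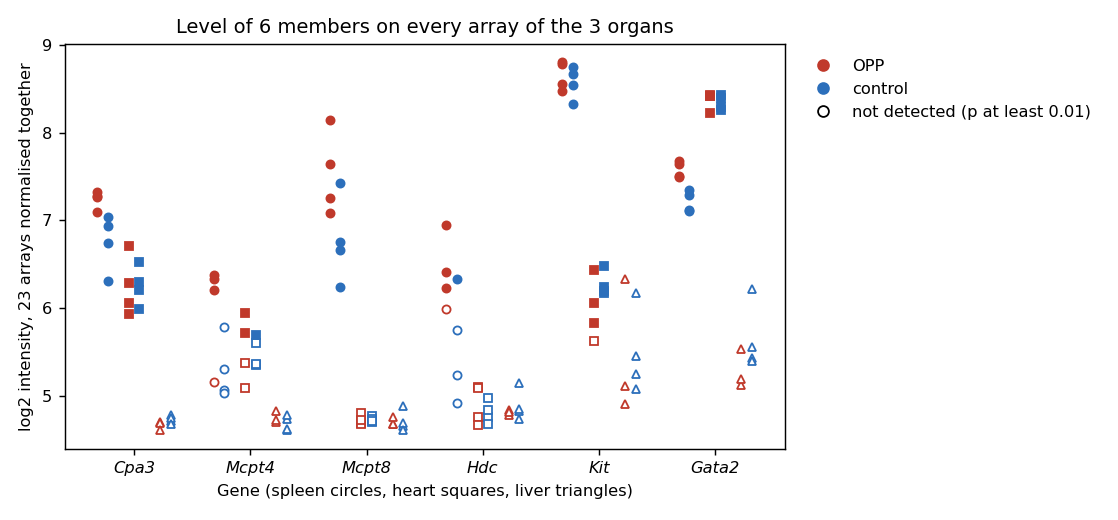
Log2 intensity of 6 genes on all 23 arrays normalised together (y axis), with spleens as circles, hearts as squares and livers as triangles, OPP in red left of control in blue, and open symbols for arrays without detection. Gata2 was highest in the heart, Kit, Cpa3 and Mcpt8 were highest in the spleen, and all liver symbols are open.

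Of the 6 tested genes, Gata2 was the one with its highest level in the heart. It ranged between 8.22 and 8.44 (median 8.41) over the hearts and between 7.11 and 7.68 (median 7.42) over the spleens, with no overlap. Spleen minus heart was -0.96 ± 0.10 (log2, SE), with a limma adjusted p of 1.34e-08. The liver did not detect it, and the heart was at least 2.99-fold and the spleen at least 1.54-fold above the liver bound. Endothelial markers, of which 9 of 10 were detected on every heart, had a summed level of 6850 to 8830 over the hearts and 2040 to 2720 over the spleens (linear normalised intensity), and Kdr was detected in neither organ. Their part in the level of Gata2 was not tested.

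Of the 3 genes detected in both spleen and heart on most arrays, Kit had the widest gap. It ranged between 8.33 and 8.81 (median 8.62) over the spleens and between 5.62 and 6.48 (median 6.19) over the hearts. Spleen minus heart was 2.49 ± 0.18 (log2, SE), or 5.62-fold, with a limma adjusted p of 1.92e-11. The liver lay between 4.90 and 6.33 without detection, which overlaps the heart, and the spleen was at least 3.58-fold above the liver bound, whereas for the heart no bound above 1 could be given.

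Mcpt8 was detected in the spleen only, on every one of its 8 arrays. It ranged between 6.24 and 8.15 (median 7.17) over the spleens, against 4.68 to 4.80 over the hearts and 4.61 to 4.88 over the livers. The heart and liver values overlap and lie in the range of undetected probes. The spleen was at least 2.63-fold above the heart bound and at least 1.3-fold above the liver bound. The measured differences, 2.43 from the heart and 2.45 from the liver (log2), had limma adjusted p-values of 2.94e-13 and 4.1e-13, which do not test the bounds.

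Cpa3 was the protease of the list detected on every spleen and every heart. It ranged between 6.31 and 7.32 (median 7.07) over the spleens and between 5.94 and 6.71 (median 6.24) over the hearts. The ranges overlap, since control spleen 1 (6.31) was below OPP heart 2 (6.71) and control heart 3 (6.52), and spleen minus heart was 0.75 ± 0.11 (log2, SE), or 1.68-fold, with a limma adjusted p of 2.03e-06. The spleen was at least 1.17-fold above the liver bound, and for the heart no bound above 1 could be given.

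Hdc ranged between 4.91 and 6.95 over the spleens, with 4 of 8 arrays detected, against 4.66 to 5.09 over the hearts and 4.73 to 5.14 over the livers. The mean over all 8 spleens was 1.16-fold above the heart bound. It includes undetected spleens at their measured values, so 1.16 is not a lower bound. Mcpt4 did not separate spleen and heart, at 5.03 to 6.37 over the spleens and 5.09 to 5.94 over the hearts, each with 3 of 8 arrays detected. Its spleen minus heart was 0.14 ± 0.16 (log2, SE; limma adjusted p = 0.406), and 0.28 without OPP spleen 2 (adjusted p = 0.0337). For Tpsb2, Fcer1a and Ms4a2 no order can be given. Fcer1a came nearest to detection in the spleen, with a lowest detection p of 0.0109 and 7 of 8 spleens under 0.05.

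The genes whose pattern over the 23 arrays was nearest to each of the 6 were found by Pearson correlation, as a description in which the 3 organs supply most of the spread. For Mcpt8 they were Chil3 (r = 0.994), Ms4a3 (0.991) and Ncf1 (0.988), and for Hdc Ms4a3 (0.937), Trem3 (0.936) and Mmp8 (0.936). For Cpa3 they were Tfdp2 (0.972), S100a11 (0.971) and Atpif1 (0.969), and for Mcpt4 Dnajc5 (0.836), Cpa3 (0.816) and Ier5l (0.80). For Kit they were Tmc6 (0.982), Erh (0.98) and Actb (0.98), and for Gata2 Pkm (0.989), Cd63 (0.984) and Bzw2 (0.982). Ms4a3 was thus near both genes that were highest in OPP spleen 2.

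Other genes of mast cells and basophils were read in the spleen at the brightest tested probe. Of 12 further granule genes with a probe, 7 were tested, 6 were higher in OPP spleens, and the median log2 difference was 0.26. Rab27a, a GTPase of granule release, was the 1 gene under an unadjusted p of 0.01, with a mean of 8.99 in OPP spleens and 8.37 in control spleens (difference 0.62 ± 0.19, limma adjusted p = 0.581). Prss34, another basophil protease of the mouse, was singled out after its values were seen. It was detected on all 8 spleens, at 7.93, 8.43, 7.66 and 6.97 in OPP spleens, against 6.77, 6.47, 7.69 and 6.22 in control spleens, again with OPP spleen 2 highest, control spleen 4 lowest and control spleen 3 the highest of its group. Its difference was 0.96 ± 0.35 (log2, SE; limma adjusted p = 0.635).

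The signalling, regulatory and mediator lists had 0 genes under an unadjusted 0.01 in the spleen. Of all spleen probes, 1.69% were under 0.01 and 6.91% under 0.05. Of 17 genes of IgE receptor and Kit signalling with a probe, 11 were tested, 0 had an unadjusted p under 0.01 and 1 (Vav1, an exchange factor, 0.20 higher with OPP) had one under 0.05, with a median log2 difference of 0.07. Of 13 growth factor and cytokine receptors 3 were tested, and the 1 under 0.05 was Il3ra, a chain of the receptor for interleukin-3, with a difference of 0.28 ± 0.11 (limma adjusted p = 0.677). Of 14 transcription factors 8 were tested and none was under 0.05, with a median of 0.09, and Gata1 differed by 0.12 ± 0.16 (limma adjusted p = 0.971). Of 8 genes of lipid mediator synthesis 3 were tested, all with higher means in OPP spleens, with a median of 0.33 and 0 under 0.01. The 1 under 0.05 was Alox5ap, the activating protein of 5-lipoxygenase, with a difference of 0.71 ± 0.23 (limma adjusted p = 0.581).

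**Figure D5:**
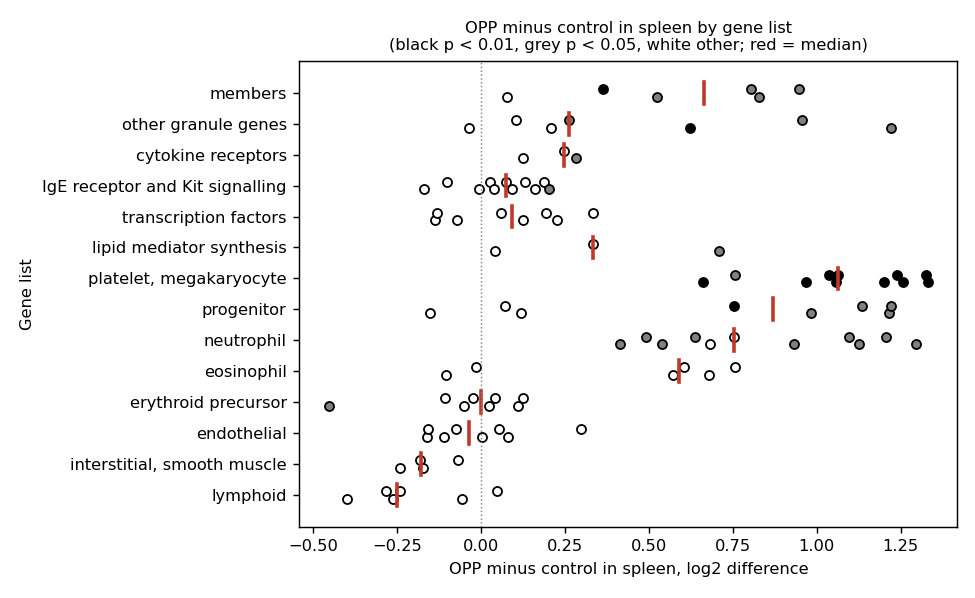
Difference between OPP and control spleens (x axis, log2) for each tested gene of 14 lists, with black points for an unadjusted limma p under 0.01, grey for under 0.05, white for the rest and a red line for the median of each list. The 6 tested genes of the list of 10 have a median of 0.66 (0.44 over the 4 detected on all spleens), the platelet list one of 1.06 and the neutrophil list one of 0.75, while the endothelial list has one of -0.04.

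Markers of other blood cells were also read in these spleens, and none passed the adjustment in limma. All 11 tested platelet and megakaryocyte markers had higher means in OPP spleens (49.3% of all probes), with a median log2 difference of 1.06. Of these, 10 had an unadjusted limma p under 0.01, against 1.69% of all probes. The study named Vwf, Selp, Itga2b, Gp1bb, Gp5, Gp9, F2rl2 and F2rl3 as raised by OPP in these same samples. The direction of these genes is therefore not independent evidence. The 4 markers of the list with the smallest p were Vwf (1.33), F2rl3 (0.66), Ppbp (1.24) and F2rl2 (1.06, log2 differences), with adjusted p-values of 0.473 to 0.474. Their summed level was 10000 to 13900 in OPP spleens and 3750 to 9780 in control spleens (linear normalised intensity). Itgb3, also on this list, was not detected on any spleen and was not tested. Control spleen 1, the lowest for Cpa3, had the 9780.

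Of the 11 neutrophil markers all had higher means in OPP spleens, against 49.3% of all probes. An unadjusted limma p under 0.05 was reached by 9, against 6.91% of all probes. The markers had a median of 0.75 and a smallest adjusted p of 0.583. Their summed level was 99400, 127000, 94400 and 83300 in OPP spleens, against 62500, 62100, 91900 and 32200 in control spleens. OPP spleen 2 was again the highest, control spleen 4 the lowest and control spleen 3 the highest of its group, as for Mcpt8, Hdc and Prss34. Of 8 tested progenitor markers, 5 had an unadjusted limma p under 0.05, against 6.91% of all probes, and all 5 were higher. Of these, Mpo, Prtn3, Elane and Ctsg are granule enzymes of myeloid precursors, and Ctsg also stands in the granule gene list. The other 3 were Cd34 (-0.15), Myb (0.07) and Meis1 (0.12), none under 0.05. Slamf1 was the 1 progenitor marker under 0.01 (0.75 ± 0.21, adjusted p = 0.504). The summed progenitor level was 21800, 37200, 17400 and 16500 in OPP spleens, against 10600, 9280, 24100 and 5870 in control spleens, and Hoxa9, Flt3 and Procr were detected on no spleen.

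The 6 tested eosinophil markers had a median of 0.59 and 0 genes under 0.05, the 8 endothelial markers one of -0.04 with 0 under 0.05, and the 4 interstitial and smooth muscle markers one of -0.18. The median was 0.00 over 8 erythroid precursor markers and -0.25 over 6 lymphoid markers. The 4 melanocyte markers did not enter the spleen test, and Tyr was detected on no spleen. The part of platelets, neutrophils and progenitors in the differences of the mast cell and basophil genes was not tested.

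In the other organs these lists gave single genes under an unadjusted 0.01. The 7 neutrophil markers tested in the heart all had higher means with OPP (51.1% of all probes), with a median of 0.47. Of the 4 tested in the liver, 0 had higher means (45.4% of all probes), with a median of -1.98. In both organs 0 of them had an unadjusted limma p under 0.05. Of 9 tested endothelial markers in the heart, 7 were higher and 3 were under 0.05, against 14.1% of all probes. In the heart, Cebpb, a transcription factor of myeloid cells and other tissues, averaged 9.75 in OPP hearts and 9.22 in control hearts (difference 0.53 ± 0.13, limma adjusted p = 0.147), the only one of 8 tested transcription factors under 0.01. The 4 further granule genes, 5 signalling genes, 1 receptor and 4 lipid mediator genes tested there had 0 under 0.01. Among the markers of other cells in the heart, those under an unadjusted 0.01 had an OPP minus control of -0.37 (Cd34), -1.44 (Tfrc), -0.40 (Apoa1), 0.33 (Des) and 0.25 (Myh6), and none passed the adjustment. In the liver, Ndst2, an enzyme of heparin synthesis, averaged 8.17 in OPP livers and 8.67 in control livers (difference -0.50 ± 0.14, limma adjusted p = 0.316), as the 1 of 3 tested granule genes under 0.01, and 2 signalling genes, 1 receptor and 5 transcription factors gave 0.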

How the data were processed

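Mean bead intensities of 23 Illumina MouseRef-8 arrays were deposited as exported by the authors, beside a detection p-value per probe and array, and the submitters' processing notes name BeadStudio 1.5.1.3. The authors' rank invariant normalised intensities, with values below 10 set to 10, were also deposited and served as an alternative. With R 4.3.3 and limma 3.58.1, background was removed with nec (from the detection p, offset 16), and intensities were log2 transformed. Arrays were then quantile normalised within an organ, or over all 23 arrays for comparisons of organs. A probe was tested where 3 or more arrays of either group detected it at 0.01 (lmFit, eBayes with trend, Benjamini-Hochberg at 0.05, and the study's unadjusted 0.01). A gene counted at its brightest probe. Exact permutation tests were two-sided. The fits were checked on simulated data, with noise drawn independently for each probe and 100 probes picked at random for each size of change. In 8582 spleen probes, 97% of those changed by 1 on the log2 scale reached limma p under 0.01 and 81% passed the adjustment. For changes of 0.5 the shares were 73% and 41%. In the real spleens Mcpt8, Hdc and the neutrophil markers varied together, and Hdc had an SE of 0.34. The shares therefore do not give the power for the genes of the list. The number of arrays limits the precision.

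The 10 genes and the other lists were chosen with earlier results of these data known. All 10 genes were named, of other lists up to 4 genes under an unadjusted 0.01, smallest p first (other genes of these lists were named after their values were seen), and the 3 nearest genes by Pearson correlation. Of the probes, 19398 had 1 gene symbol, 0 several and 4650 none. No 2 arrays held identical values. Alternatives covered scaling, background, filters, weights, the methods' t-test, a replicate block and leaving out each array.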

Additional observations from a re-analysis of the deposited data

Results flagged for a closer look

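Among the 18 groups of 4 arrays looked at (each tested gene in each group of spleens and hearts), 2 held an array that stood apart by its gap to the nearest array, and chance gives about 1 in 20 groups. Mcpt4 was at 5.09 in OPP spleen 2, while the other OPP spleens were at 6.29 to 6.49. Gata2 was at 8.04 in OPP heart 1, while the other OPP hearts were at 8.22 to 8.24. The response to OPP differed between organs for none of the 6 genes after adjustment.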

How the results depend on the processing

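The direction of the 6 spleen differences was kept under all alternatives, except that Kit ran between -0.0005 (without control spleen 1) and 0.13 when single arrays were left out. The count of genes of the list under an unadjusted p of 0.01 in the spleen was 1 (1.69% of all probes), with 3 under median scaling (where Gata2 was no longer among them), 2 without background correction, 4 without the filter, 3 with array weights and 4 with all organs in 1 fit, where Mcpt8, Hdc, Mcpt4 and Cpa3 passed and Gata2 did not. In that fit 212 of the 11212 probes were under 0.01, and Hdc and Mcpt4 had entered it through OPP spleens only. For the other alternatives the share of all probes is not given here. Leaving out each array gave 0 to 3 genes in the spleen and 0 to 1 in the heart. No adjusted p of a spleen difference was under 0.21 in any alternative. With the replicate number as a block the spleen count was 1, as before, with Hdc in place of Gata2. The numbers were not shown to pair the spleens, since the correlation of deviations ran between -0.287 and 0.318 over the 4 numbers. For the hearts it was 0.44 and 0.455 for numbers 2 and 4, and 0.0124 and 0.0204 for numbers 1 and 3. Whether the numbers pair the hearts was not tested. The block also brought Kit in the heart under an unadjusted 0.05, as did median scaling and leaving out OPP heart 4, and changed no other call. At that threshold the spleen count of 5 was 2 with the methods' t-test, 3 with detection on every array of a group, 4 with the authors' values and 3 to 5 without single arrays. Heart minus liver for Kit missed the adjustment with OPP arrays only (0.54, limma adjusted p = 0.127).

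In the heart, leaving out single arrays gave -0.0052 to 0.0724 for Gata2 and -0.17 to 0.10 for Cpa3. Gata2 turned to -0.10 under median scaling and -0.0052 without control heart 4, and Cpa3 turned to 0.0866 and 0.0073 without control hearts 3 and 4 and to 0.0589 and 0.10 without OPP hearts 1 and 3. Heart minus liver for Hdc was 0.01 and turned to -0.13 with the authors' values, -0.0067 without background correction and between -0.0228 and 0.0531 without single arrays. At a detection p under 0.05 the liver had 1 gene of the list, Kit. The dimmest tested probe as an alternative gave no value, since each gene had 1 tested probe. Leaving out an OPP spleen that detected Mcpt4 or Hdc left that gene untested. The detection limit of the liver arrays, the highest of the organs, restricts what they can show. The cause of these changes was not tested.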
